A study of Apis mellifera carnica with 38 samples.

Results

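*Crzr* (GeneID 409042) encodes the corazonin receptor, and its level was followed in 38 RNA-seq libraries from the brains and fat bodies of 20 honey bee queens (*Apis mellifera carnica*). It is 1 of the 12332 genes counted in every library. It was chosen by its measured level in the fat body, which was far lower in queens injected with ejaculate than in queens injected with the diluent, so those comparisons are given below as descriptions without a test. The study asked whether seminal fluid without sperm is enough to set off the changes that follow mating.

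None of the queens had mated. All were daughters of 1 source colony headed by a queen inseminated by a single drone. Virgin queens (V) were left untreated. The other queens were injected into the body cavity, about 1 week after emergence and without anaesthesia, with Hayes solution (HS), a saline used to dilute semen, with seminal fluid (SF), which is the supernatant of centrifuged semen mixed with Hayes solution, or with whole semen (SE). The semen was pooled from many drones, so every SF and SE queen received material from the same pool. By the study's methods, queens taken for an assay of worker attraction 5 days after the injections were collected on the next day. The fat body of each group was represented by 5 queens. The brain was represented by 5 queens each of V, HS and SE and by 3 of SF. The tissue called fat body was the eviscerated abdominal cuticle with its lining, so it can also hold oenocytes, epidermis and muscle. The numbers in the library names identify queens, and 18 of the 20 queens gave both tissues.

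Corazonin is a neuropeptide made by neurosecretory cells of insects. Its receptor is a G protein-coupled receptor of the cell surface, related to the receptor of adipokinetic hormone, the peptide that mobilises stored fat and sugar in the insect fat body, and to the vertebrate receptor of gonadotropin-releasing hormone. In fruit flies the receptor is active in the fat body and takes part in responses to nutritional stress, and in an ant the peptide is linked to the difference between workers and reproductives.

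In the genome assembly Amel_HAv3.1, *Crzr* lies on chromosome 1 from position 10198903 to 10212094, a span of 13192 bases with 3 annotated transcripts, all coding. The authors' counting assigned reads to whole gene spans, so reads from introns were counted with those from exons. A second protein-coding gene, *LOC102654114*, lies wholly inside this span (10205817 to 10208138) and had 0 reads in all 38 libraries. Reads that fall on both genes are not assigned to either by the counter's default. The library kit does not mark strand and the strand setting of the counter is not given in the sources used here, so the *Crzr* counts may miss reads that fell in those 2322 bases. The next genes are *LOC412813*, which ends 14470 bases before *Crzr*, and *LOC408600*, which starts 15006 bases after it.

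The libraries held between 8699477 and 25753740 reads on genes in brain and between 4832119 and 29963718 in fat body, and *Crzr* had between 42 and 1930 reads in brain and between 72 and 2908 in fat body. The share of reads that did not align was lower in V than in injected queens in fat body, with means of 4.09% in V, 58.9% in HS, 58.5% in SF and 63.3% in SE. In brain it ranged from 4.05% to 53.6%. By the published methods, many of the reads that did not map to the bee genome came from deformed wing virus. The brains of SF queen 16 and SE queen 83, which had a low share, were left out of comparisons among injected queens, as in the published choice of libraries, and the other 11 brains were used. The summed level of 6 fat body marker genes (vitellogenin, 4 hexamerins and transferrin) was between 22154 and 121562 CPM (reads scaled to a common library total) in the fat body libraries and between 8664 and 25135 CPM in brain. The summed level of 4 neuronal genes (*Syt1*, *Syx1A*, *brp* and *Para*) was between 1767 and 2264 CPM in brain and between 331 and 530 CPM in fat body. Each tissue thus held its own markers at the higher level, and the fat body markers overlapped between the tissues at the edge of their ranges. In whole tissues, fewer cells of a type and less RNA per cell cannot be told apart.

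Levels of *Crzr* are given as CPM with TMM scaling (a factor per library that sets the bulk of genes level) within each tissue. In the fat body of V queens *Crzr* was at 72.98, 54.8, 98.0, 112 and 101 CPM in queens 20, 49, 64, 68 and 77, with a mean of 87.8 ± 23.4 (SD, n = 5). In HS queens 51, 53, 73, 74 and 75 it was at 68.3, 84.4, 62.4, 41.4 and 88.0 CPM, with a mean of 68.9 ± 18.7 (SD, n = 5). The untreated and the diluent-injected queens overlapped over most of their range, and HS queen 74 was the lowest of these 10 libraries.

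In SF queens 1, 16, 35, 76 and 79 the fat body level of *Crzr* was 9.33, 18.5, 10.5, 16.9 and 17.1 CPM, with a mean of 14.4 ± 4.22 (SD, n = 5). In SE queens 24, 27, 29, 38 and 83 it was 26.7, 22.7, 16.6, 21.4 and 21.4 CPM, with a mean of 21.7 ± 3.61 (SD, n = 5). All 10 libraries from queens that received ejaculate were below all 10 from queens that did not, and the highest of the former (26.7 CPM, SE queen 24) was separated from the lowest of the latter (41.4 CPM, HS queen 74). The order of the group means was V, HS, SE, SF. The neighbouring pairs V and HS, and SE and SF, overlapped.

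**Figure D1:**
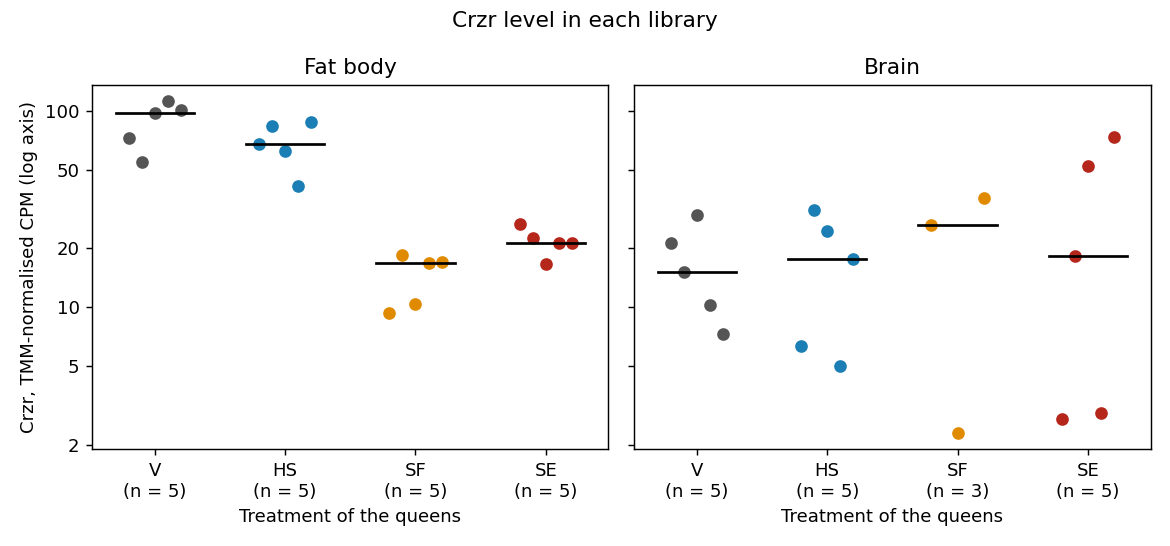
*Crzr* level in every library, as TMM-normalised CPM on a log axis, for the fat body (left) and the brain (right) of V, HS, SF and SE queens. Each point is a queen and the lines are group medians. In fat body the SF and SE libraries lie between 9.33 and 26.7 CPM and the V and HS libraries between 41.4 and 112 CPM, while in brain every group overlaps every other.

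The fitted difference in fat body between SF and HS was -2.24 on the log2 scale (standard error, s.e., 0.215), a level 4.73-fold lower in SF. Between SE and HS it was -1.67 (s.e. 0.209), or 3.19-fold lower in SE. Both are descriptions, since these 15 fat bodies of HS, SF and SE chose the gene. In these comparisons 1.66% (SF against HS) and 3.69% (SE against HS) of the 8201 genes tested were differentially expressed at a Benjamini-Hochberg (BH) adjusted p under 0.05 in the quasi-likelihood test of edgeR. With sequencing lane in the fit the genes called fell from 136 to 5 and from 303 to 64, while the *Crzr* differences were -2.38 and -1.77. Leaving out each library in turn gave differences from -2.38 to -2.12 for SF and from -1.81 to -1.57 for SE. Libraries had been spread over 6 sequencing lanes. Within lanes, SF was lower than HS in both lanes that held fat bodies of the 2 groups (log2 differences -2.66 and -2.02), and SE was lower in all 4 (-2.41 to -0.95).

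The difference between SE and SF was small beside these. *Crzr* was 1.49-fold higher in SE (log2 difference 0.57, s.e. 0.219, 95% interval 0.09 to 1.05) and the 2 groups overlapped, again without a test because both chose the gene. No gene passed the threshold in this comparison (0%) with edgeR, DESeq2 or limma-voom, and 438 genes had an unadjusted p under 0.05 with edgeR.

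The virgin queens give a reference that took no part in the choice of the gene. In fat body the log2 difference of *Crzr* between HS and V was -0.35 (s.e. 0.209, 95% interval -0.80 to 0.09), in a comparison in which 7.63% of 8403 genes were called. HS was lower than V in 3 of the 4 lanes that held both. Against V, the SF level was 6.04-fold lower (log2 difference -2.59, s.e. 0.231) and the SE level 4.07-fold lower (-2.03, s.e. 0.224). The HS, SF and SE libraries here are those that chose the gene, so these 3 values too are descriptions. They stand beside 28.1% and 33.4% of all genes called between SF and V and between SE and V, respectively. The injected fat bodies differed from V in their share of unaligned reads, as given above, and its part in the differences from V was not tested.

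Of the other cell types that the abdominal wall can hold, oenocytes were followed through *Cyp4g11*, a cytochrome P450 of hydrocarbon synthesis. Its level was between 32669 and 50545 CPM in V, 12438 and 42709 in HS, 12876 and 29176 in SF and 17912 and 24406 in SE, so HS overlapped both ejaculate groups. Its Pearson r with *Crzr* over the 20 fat body libraries was 0.64, which placed it at rank 719 of 8402 genes. Over deviations from group means it was 0.20. Muscle markers (6 genes, 1 of them at 0 in every library) summed to between 1833 and 3246 CPM in fat body (r 0.33), and the hemocyte gene *PPO* was between 23.3 and 514 CPM (r -0.32). The part of these cell types in the *Crzr* difference was not tested.

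In the brain the level of *Crzr* was lower in V and HS and much more uneven. V queens 20, 49, 64, 68 and 77 were at 21.2, 15.1, 29.5, 10.2 and 7.29 CPM (16.7 ± 8.90, SD, n = 5). HS queens 51, 53, 73, 74 and 75 were at 6.32, 31.2, 24.4, 5.04 and 17.6 CPM (16.9 ± 11.4, SD, n = 5). SF queens 1, 16 and 76 were at 26.2, 2.30 and 36.1 CPM (21.5 ± 17.4, SD, n = 3). The 4 groups overlapped throughout.

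SE brains spanned the widest range. Queens 24, 27, 29, 38 and 83 were at 2.70, 18.2, 52.3, 2.90 and 74.3 CPM (30.1 ± 31.9, SD, n = 5), so the highest was 27.5 times the lowest. In the fat bodies of the same group that ratio was 1.61. Over all 18 brains the highest level was 32.3 times the lowest, as against 12.02 times over the 20 fat bodies, where the spread lay mainly between groups.

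No brain comparison of *Crzr* passed the edgeR test. Among injected queens the log2 difference was 0.87 between SF and HS (s.e. 0.976, 95% interval -1.38 to 3.12, BH adjusted p = 0.594), 0.14 between SE and HS (s.e. 0.816, -1.74 to 2.02, adjusted p = 0.948) and -0.73 between SE and SF (s.e. 1.02, -3.08 to 1.62, adjusted p = 0.724). In these comparisons 7.93%, 1.24% and 2.24% of 9030 genes (716, 112 and 202) were called. With the 2 brains that the study left out added back 0 of 9004 genes were called in each, with lane in the fit 63, 23 and 91, and with the share of unaligned reads 246, 114 and 0. Against V the differences were 0.04 for HS, 0.36 for SF and 0.86 for SE (s.e. 0.832, 0.950 and 0.825, BH adjusted p = 0.994, 0.968 and 0.839). There 0% of 9057 genes were called by edgeR, although 522, 364 and 670 of them reached 0.05 before adjustment. Counts with DESeq2 were 8, 0 and 2, and with limma-voom 0 each time. Only 2 SF brains entered the comparison with HS, and with lane in the fit the differences from HS were 0.052 in SF and -1.47 in SE. Whether the effect of ejaculate differed between the tissues was not tested, since its fat body side chose the gene.

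**Figure D2:**
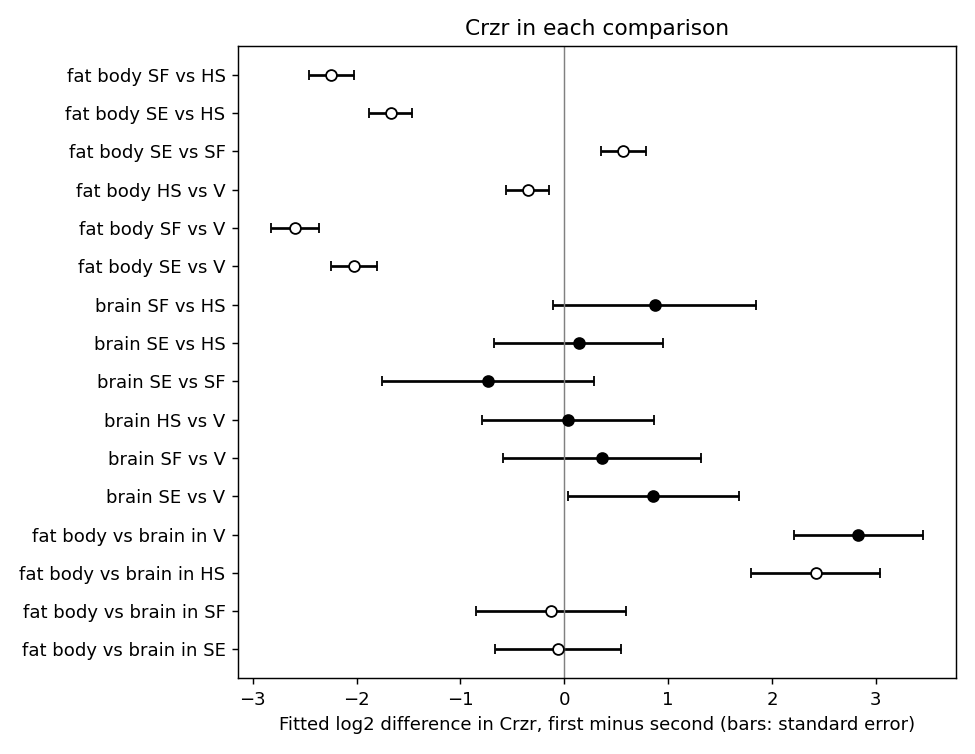
Fitted log2 difference in *Crzr* for each comparison (points, first group minus second) with its standard error (bars). Open points rest on fat body libraries that chose the gene and are given without a test. The SF and SE fat bodies lie between -2.59 and -1.67 against HS and V, all brain differences have a standard error of 0.816 or more, and the tissue difference was 2.83 in V and 2.42 in HS but near 0 in SF and SE.

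Levels in both tissues were then compared with all 38 libraries scaled together. In V, *Crzr* was 7.13-fold higher in fat body than in brain (log2 difference 2.83, s.e. 0.620, BH adjusted p = 1.06e-04 from edgeR), at 101 ± 27.2 against 14.3 ± 7.56 CPM (SD, n = 5 each). The groups did not overlap, and 81.1% of the 9232 genes tested differed between the tissues of V queens. The V fat bodies took no part in the choice of the gene, and *Crzr* was among the majority of genes that differed there. In the other groups the fat body side chose the gene, so the values are descriptions. In HS it was 5.36-fold higher in fat body (log2 difference 2.42, s.e. 0.621). In SF the difference was -0.12 (s.e. 0.721, 95% interval -1.60 to 1.35) and in SE it was -0.06 (s.e. 0.609, -1.30 to 1.18). Of all genes, 82% were called in HS, 77.4% in SF and 81.8% in SE. One estimate of the spread served both tissues in this fit, although brains varied more.

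In single queens the ratio of fat body to brain was between 4.49 and 18.4 in V and between 3.42 and 14.6 in HS, above 1 in 5 of 5 queens in each group. In SF it was 0.474 in queen 1, 10.8 in queen 16 and 0.629 in queen 76. In SE it was 12.7, 1.67, 0.430, 9.80 and 0.386 in queens 24, 27, 29, 38 and 83. The ratio was above 1 in 1 of 3 SF queens and in 3 of 5 SE queens, and the queens in which it was high were those whose brain level was low. Over the 18 queens with both tissues, brain and fat body levels of *Crzr* did not follow each other (Pearson r -0.04, a description).

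**Figure D3:**
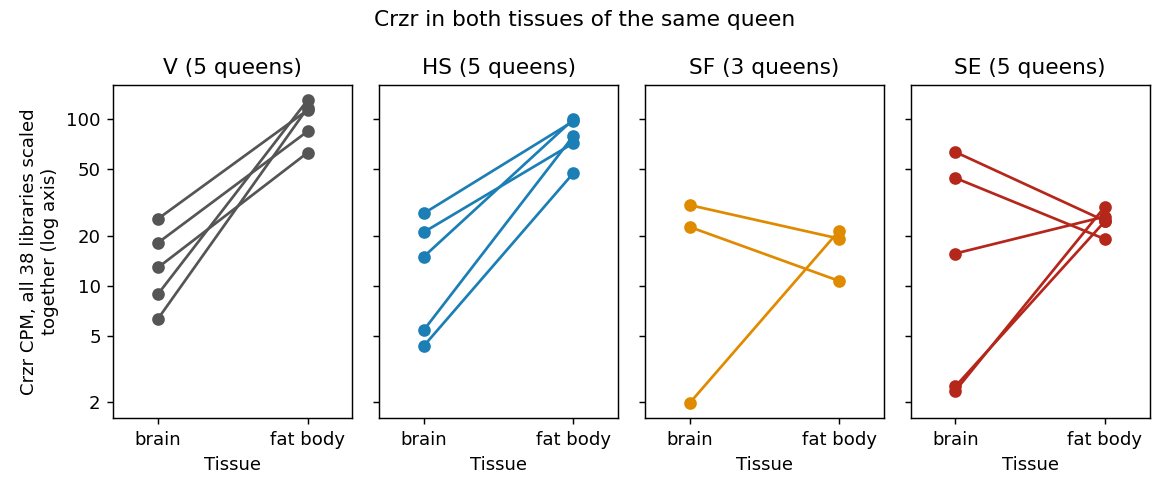
*Crzr* in the brain and the fat body of the same queen (joined points), in CPM with all 38 libraries scaled together, on a log axis, for the 18 queens with both tissues. Every V and HS line rises from brain to fat body, with ratios from 3.42 to 18.4, whereas SF and SE lines run in both directions, with ratios from 0.386 to 12.7.

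The ligand gene *Crz*, which encodes the corazonin peptide precursor, was a brain transcript. In brain it had mean levels of 4.71 ± 0.364 CPM in V, 5.24 ± 1.46 in HS, 4.31 ± 1.01 in SF (n = 3) and 5.68 ± 1.06 in SE (SD, n = 5 elsewhere), and no library fell below 3.68 CPM. In the 20 fat body libraries it had 7 reads in all, 5 of them in V, and 16 libraries had 0, which at these depths allows up to between 0.100 and 0.621 CPM. *Crz* did not pass the test in any brain comparison, with log2 differences from HS of -0.50 in SF (s.e. 0.260, BH adjusted p = 0.239) and 0.16 in SE (s.e. 0.195, adjusted p = 0.684). Over the 18 brains it ranged from 3.68 to 7.72 CPM, while its receptor ranged from 2.30 to 74.3 CPM.

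The related receptor gene *Akhr* encodes the adipokinetic hormone receptor. In fat body it was at 62.8 ± 8.11 CPM in V, 65.8 ± 9.53 in HS, 75.7 ± 14.3 in SF and 68.8 ± 9.70 in SE (SD, n = 5). All groups overlapped and no fat body comparison passed the test. Its log2 difference from HS was 0.20 in SF (s.e. 0.137, 95% interval -0.10 to 0.50, BH adjusted p = 0.514) and 0.06 in SE (s.e. 0.137, -0.24 to 0.36, adjusted p = 0.845).

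In brain *Akhr* was at 4.91 ± 1.87 CPM in V, 2.94 ± 2.36 in HS and 2.52 ± 1.39 in SE, and in SF it was at 9.07, 1.26 and 15.3 CPM in queens 1, 16 and 76. Without queen 16, *Akhr* was higher in SF than in HS (log2 difference 2.06, s.e. 0.492, BH adjusted p = 0.0327 from edgeR, 2 SF brains) and lower in SE than in SF (-2.67, s.e. 0.524, adjusted p = 0.0442). With queens 16 and 83 added back the adjusted p-values were 0.508 and 0.597, and without SF queen 76 they were 0.271 and 0.342. Leaving out each of the 11 brains in turn kept the first call in 6 fits and the second in 3.

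For the wider pathway, 12 genes of peptide, insulin and reproductive signalling were followed that could be matched by symbol, of which 9 passed the filter on low counts in fat body and 10 in brain. In the fat body, none was called between SF and HS, SE and HS or SE and SF, with median log2 differences over the 9 genes of -0.04, -0.19 and -0.14, beside medians near 0 over all genes tested (0.00, 0.02 and 0.01). DESeq2 called 1 in each comparison with HS. Against V, the called genes were all lower, 1 of 9 in HS, 3 of 9 in SF and 5 of 9 in SE, beside 4.18%, 14.5% and 17.1% of all genes tested that were called lower in these comparisons.

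By role, these were an insulin receptor gene (*InR-2*), 2 genes of signal transduction (*Pkc*, protein kinase C, and *Ac3*, an adenylate cyclase), the juvenile hormone response gene *Kr-h1* and vitellogenin (*Vg*), the main yolk protein precursor. *InR-2* fell from 22.8 ± 7.74 CPM in V to 11.7 ± 1.64 in SF and 10.1 ± 2.27 in SE (log2 differences -0.96 and -1.18, BH adjusted p = 4.78e-03 and 9.49e-04). In HS it was at 14.2 ± 3.85 CPM (-0.68 against V, adjusted p = 0.0765), and against HS the differences were -0.28 in SF and -0.50 in SE (adjusted p = 0.510 and 0.152). The other insulin gene of the list, *ILP-2*, was not called in fat body. Its log2 differences from V were 0.12 in HS, 0.28 in SF and 0.46 in SE (BH adjusted p = 0.740, 0.264 and 0.0538). *Kr-h1* fell from 95.7 ± 7.21 CPM in V to 47.8 ± 15.7 in SF and 61.1 ± 20.5 in SE (-0.999 and -0.65, BH adjusted p = 1.30e-03 and 0.0201), and was at 86.0 ± 9.61 in HS. Its differences from HS were -0.85 in SF (BH adjusted p = 0.0752) and -0.49 in SE (adjusted p = 0.228). Without SE queen 83 the adjusted p of *Kr-h1* between SE and V was 0.0639. *Pkc* and *Ac3* fell in SE against V (-0.54 and -0.49, BH adjusted p = 7.20e-03 and 0.0106), while in SF their differences from V were -0.33 and -0.34 (adjusted p = 0.0971 and 0.0696) and in HS -0.25 and -0.30 (adjusted p = 0.320 and 0.185). Whether SF and SE differed in this was not shown, since neither gene passed between them.

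*Vg* did not follow *Crzr*. It was at 60711 ± 23999 CPM in V, 21127 ± 9593 in HS, 27822 ± 16124 in SF and 27061 ± 7753 in SE (SD, n = 5), lower in all 3 injected groups than in V (log2 differences -1.52, -1.13 and -1.17, BH adjusted p = 0.0170, 0.0278 and 0.0197). The call in SF ended without V queen 20 or 49 or SF queen 16, 76 or 79 (adjusted p up to 0.0805), and that in SE without V queen 49 or SE queen 29 (0.0572 and 0.0530). Between SF and HS, and between SE and HS, *Vg* differed by 0.40 and 0.36 (s.e. 0.371 each, adjusted p = 0.660 and 0.635). In brain the list gave 2 calls of 10 between SF and HS (*Akhr*, higher in SF, and *Kr-h1*, lower), beside 7.93% of all genes, and 2 of 10 between SE and SF (*Akhr* and *Vg*, lower in SE), beside 2.24%. None of these held with all 13 brains of injected queens. Between the tissues, 7 of the 10 genes tested differed in each treatment, beside 77.4% to 82% of all genes, so the list did not stand out there.

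Of the genes next to *Crzr* on the chromosome, *LOC408600* was at 225 ± 22.0 CPM in the fat body of V, 310 ± 37.9 in HS, 378 ± 95.6 in SF and 344 ± 45.2 in SE (SD, n = 5). It was higher in each injected group than in V (BH adjusted p = 0.0438, 4.78e-04 and 2.13e-03) and did not pass between SF and HS (log2 difference 0.28, adjusted p = 0.356) or SE and HS (0.15, adjusted p = 0.616). *LOC412813* was nearly confined to brain, at 56.3 to 69.3 CPM on average there and 1.29 to 3.44 in fat body, where it was too low to test among injected queens. Against V its fat body level was lower in SF and SE (log2 differences -1.43 and -1.23, BH adjusted p = 0.0121 and 0.0208), and in HS it differed by -1.22 (adjusted p = 0.0553), with 54 to 83 reads in all per injected group.

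The genes whose fat body level most resembled that of *Crzr* were ranked by Pearson r over the 20 libraries on log2 CPM, among 8402 genes that passed the filter. Only 6 reached 0.9. These correlations share the group differences that chose *Crzr*, the libraries and their depth, and are descriptions. The closest was *LOC552286* (chromosome 12, named acetyl-CoA carboxylase-like in the study's gene tables, with an r of 0.930), a homologue of the enzyme that commits acetyl-CoA to fatty acid synthesis. It was at 600 ± 98.7 CPM in V, 495 ± 60.0 in HS, 288 ± 33.9 in SF and 356 ± 42.0 in SE (SD, n = 5), thus in the same order of groups as *Crzr* but over a narrower range, and SE (up to 415 CPM) overlapped HS (from 398 CPM) at the edge.

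Among the other 7 were *LOC409999* (lipase 3-like, r 0.912), *LOC410801* (named as a cathepsin, a family of proteases, r 0.902) and *LOC100577667* (r 0.911), to which the study's text and gene tables give different names. In HS, SF and SE, respectively, *LOC410801* was at 34.7 ± 14.4, 5.82 ± 2.05 and 7.08 ± 1.65 CPM, *LOC100577667* at 10.6 ± 4.24, 2.27 ± 1.03 and 1.76 ± 0.463 CPM and *LOC409999* at 14.8 ± 3.805, 6.65 ± 1.39 and 6.73 ± 0.853 CPM (SD, n = 5). The annotation used here holds symbols without descriptions for all genes, and the remaining 4 are given by symbol only. *LOC409678* (r 0.915) had the highest rank correlation (Spearman 0.955), and *LOC100578611*, *LOC100578678* and *LOC725069* had r of 0.916, 0.893 and 0.886.

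The 4 genes that ran most opposite to *Crzr* were *LOC551434* (selenium-binding protein 1-like, r -0.905), *LOC412972* (WD repeat domain phosphoinositide-interacting protein 3-like, r -0.899), *LOC726880* (pancreatic lipase-related protein 2-like, r -0.898) and *LOC100578030* (antitrypsin-like, a serine protease inhibitor name, r -0.898). In the same order of groups, *LOC726880* was at 69.3 ± 4.51, 112 ± 13.3 and 118 ± 7.36 CPM, and *LOC100578030* at 1845 ± 1046, 4171 ± 726 and 3549 ± 392 CPM. Lipase names thus stood on both sides of *Crzr*.

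**Figure D4:**
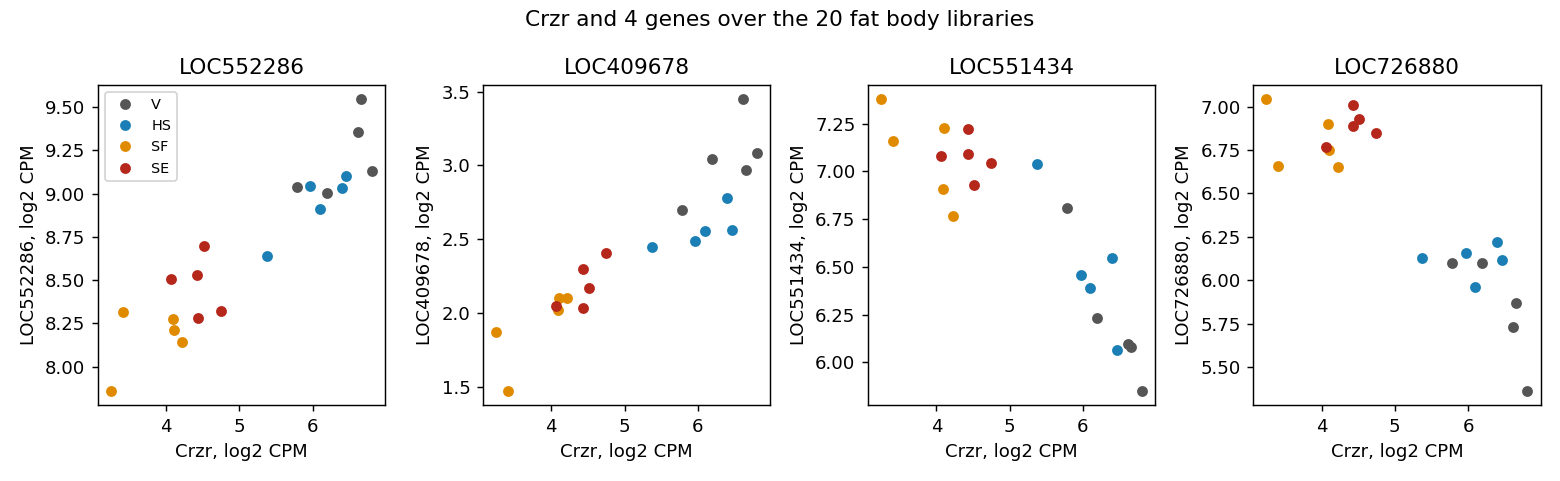
*Crzr* (x axis, log2 CPM) against 2 of the genes most like it (*LOC552286*, r 0.930, and *LOC409678*, r 0.915) and 2 of those most opposite (*LOC551434*, r -0.905, and *LOC726880*, r -0.898) over the 20 fat body libraries, coloured by treatment. The V and HS libraries lie apart from the SF and SE libraries on the *Crzr* axis, and most of each relation runs between these clouds.

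Much of this likeness lay between groups. Over deviations from the group means the r of the 8 genes with *Crzr* was between 0.183 and 0.689 (all genes, median 0.01), and 1 of the 8 stayed among the top 8 by that measure. Over the 15 injected queens 6 of the 8 stayed, and by Spearman rank 3. Without the 2 libraries in which *Crzr* was farthest from its median (SF queen 1 and V queen 68) 4 stayed, a setting chosen after seeing the data. Of the opposite genes, *LOC551434* kept an r of -0.81 within groups. *LOC100578030*, *LOC726880* and *LOC412972* were at -0.43, -0.42 and -0.36 there.

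In the brain, where treatment did not order the levels, *Crzr* ran closely with a largely different set of genes. This ranking was made, and the genes below chosen, after the values were seen, and it is a description. Over the 18 brains, 66 of 9056 genes had an r of at least 0.8 with *Crzr* and 0 had an r of -0.8 or lower. The highest was 0.964 (*LOC100576118*), from 1.70 CPM in the SF queen with the lowest *Crzr* to 73.1 CPM in the SE queen with the highest. *FAR1*, a fatty acyl-CoA reductase gene, had an r of 0.929 and ranged from 117 to 1564 CPM. *CSP1*, a chemosensory protein gene, had an r of 0.910 and ranged from 2.68 to 309 CPM. The brains of SF queen 16, SE queens 24 and 38 and HS queens 51 and 74, which had the least *Crzr*, were also the lowest 5 for *LOC100576118* and *FAR1*, and for *CSP1* with the exception of SE queen 24.

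Of the 66 genes with an r of at least 0.8 in brain, 7 also reached 0.8 in fat body. Over all genes compared in fat body, 91 of 8402 did, and the overlap was not tested. *LOC552286* and *CSP1* were among the 7 (r 0.874 and 0.910 in brain, 0.930 and 0.804 in fat body). *Akhr* had an r of 0.64 with *Crzr* in brain and -0.30 in fat body. The brain level of *Crzr* had an r of 0.03 with the share of unaligned reads, 0.44 with the summed fat body markers, 0.42 with *PPO*, 0.27 with the muscle markers and -0.19 with the neuronal markers. The part of these in the spread between brains was not tested.

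**Figure D5:**
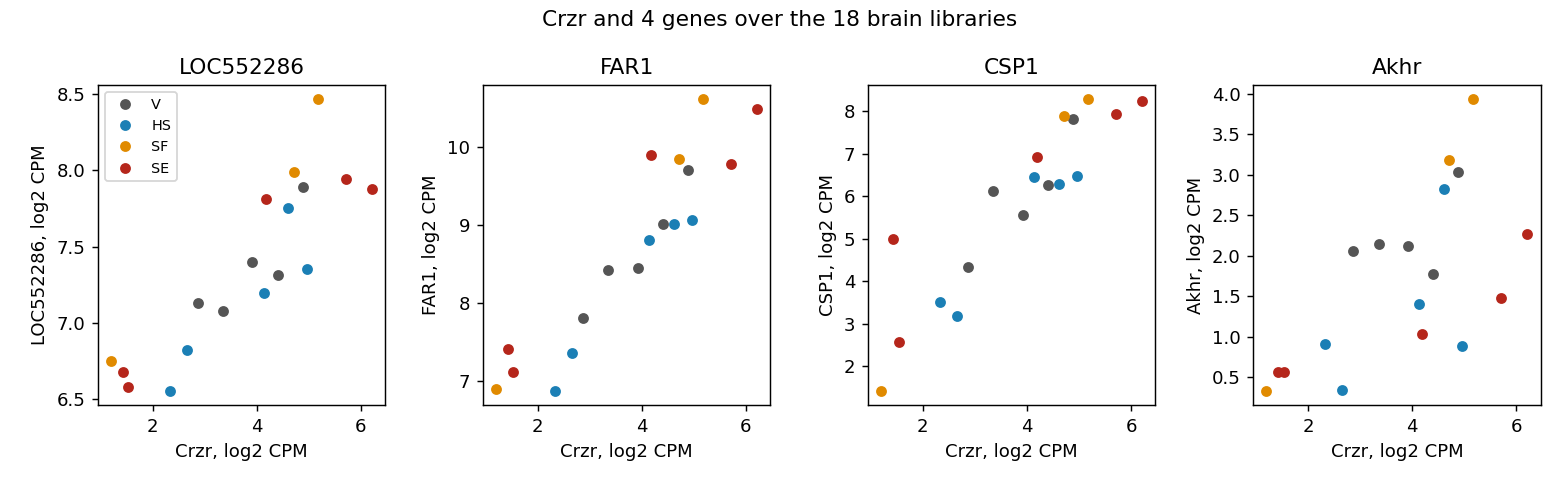
*Crzr* (x axis, log2 CPM) against *LOC552286*, *FAR1*, *CSP1* and *Akhr* over the 18 brain libraries, coloured by treatment. Points of every treatment lie along the same trend for the first 3 genes (r 0.874, 0.929 and 0.910) and more loosely for *Akhr* (r 0.64).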

How the data were processed

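Per the study's methods, single-end reads were trimmed with cutadapt, aligned to Amel_HAv3.1 with HISAT2 and counted with HTSeq over whole gene spans. The authors deposited raw counts for 12332 genes in 38 libraries, and the 5 summary rows of the counter were left out of library sizes. These counts were tested with edgeR 4.0.16 (R 4.3.3) by the quasi-likelihood test, after the expression filter (minimum count 20), TMM scaling and BH adjustment over all genes tested, at a threshold of 0.05. Groups were fitted together within each tissue, or over both tissues for tissue differences. Log2 CPM for likeness used a prior count of 2. DESeq2 1.42.0, limma-voom (limma 3.58.1), other scalings, no filter, sequencing lane (from the read file names in the study's supplement), the share of unaligned reads and omission of single libraries were alternatives. The main edgeR fit, DESeq2 and limma-voom were checked on simulated data, in the first comparison of each set of libraries. A minimum number of recovered genes was required only of edgeR, and not of its fit of V and injected brains alone. The other alternatives were not checked in this way. The 73 pairs of libraries within groups differed beyond sampling noise (lowest chi-square per degree of freedom 16.3). Each replicate is 1 queen, so brain and fat body with the same number come from the same animal, and a fit with queen as a block was the paired alternative. *Crzr*, the lists and the comparisons were chosen with earlier results of these data known. Named genes were *Crzr*, the 8 most like and 4 most opposite to it in fat body, the ligand and related receptor, called list members and chromosomal neighbours. *ILP-2* was added after the values were seen. Genes were named by symbol from RefSeq for Amel_HAv3.1, all 12332 matched. Intervals are the estimate ± t times its standard error, and depth limits cover counting error only.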

Additional observations from a re-analysis of the deposited data

Results flagged for a closer look

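In 65 groups of 4 or 5 libraries over part of the named genes, a library far from the others of its group was looked for. Chance gives about 1 in 20 groups. The called list members were not all in this search, and some also had a library apart from its group. *Pkc* was at 100 CPM in the fat body of V queen 49, where the next V library was at 129. *Vg* in brain was at 11842 CPM in SE queen 83 (next 1273) and at 8885 CPM in HS queen 73 (next 3015). Within the search, none was found for *Crzr*, and 5 were found in other genes. *Akhr* in brain was at 8.18 CPM in V queen 64, where the next V brain was at 4.42, and at 7.07 CPM in HS queen 73, where the next HS brain was at 2.64. In fat body, *LOC100578030* was at 3681 CPM in HS queen 74, against 1594 in the next HS library, and that queen also had the lowest *Crzr* of its group. *LOC725069* was at 27.3 CPM in SF queen 79 (next 20.5), and *LOC100578611* at 10.1 CPM in SE queen 38 (next 8.15).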

How the results depend on the processing

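The higher level of *Crzr* in fat body than in brain of V queens kept its call under all 7 alternatives and without each queen in turn. The same difference in HS, a description, ranged from 2.08 to 2.70 over these. Without each of 20 libraries the fitted differences from V stayed between -2.73 and -2.48 in SF and between -2.16 and -1.92 in SE. The queen block kept the call in V (2.92) and gave 2.64 in HS, 0.34 in SF and 0.78 in SE, where the unblocked SF and SE values were slightly negative. Library sizes alone moved the median of all genes between tissues by -0.41 to -0.50, and the V and HS differences to 2.37 and 2.08. No brain comparison of *Crzr* passed the threshold under any alternative, but several differences changed sign and the cause was not tested. With limma-voom the brain differences were -0.84 (SE against HS), -0.039 (HS against V), -0.35 (SF against V) and -0.052 (SE against V), and the tissue differences 0.79 in SF and 1.04 in SE. With lane they were -1.47, -0.21 and -0.18 for the first 3, and 0.15 for the tissues in SE. With all 13 brains SE against SF was 0.49. Without single libraries the brain ranges were -1.15 to 0.51 (SE against HS), -0.31 to 0.35 (HS against V) and -0.25 to 0.91 (SF against V), the tissue ranges -0.79 to 0.44 in SF and -0.42 to 0.63 in SE, and that of *Akhr* in fat body between SE and HS -0.016 to 0.15. DESeq2 called 345, 666, 1180, 487 and 736 genes where edgeR called 136, 303, 716, 112 and 202 (SF and SE against HS in fat body, then SF against HS, SE against HS and SE against SF in brain), and library sizes alone called 789 in the last. In the same order, with lane in the fit 5, 64, 63, 23 and 91 genes were called, and with the share of unaligned reads 246 between SF and HS and 0 between SE and SF in brain. With all 13 brains 0 were called in each brain comparison of injected queens. These counts with lane, unaligned reads or 13 brains were added after seeing the data. Library sizes alone also moved the share of called genes that were higher in the first group from 50.7% to 20.4%, 40.3% to 23.8%, 56.4% to 28.4%, 48.2% to 65.2% and 19.3% to 70.8% in that order, from 45.2% to 64.7% between HS and V in fat body, and from between 47.6% and 48.2% to between 27.2% and 32.2% for fat body against brain. Of the list, DESeq2 called 1, 1 and 2 in fat body where edgeR called 0, 0 and 1 (SF and SE against HS, HS against V), and library sizes alone 1 between SF and HS. With the share of unaligned reads in the fit, 121 genes were called between HS and V brains.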
